A study of Mus musculus with 4 samples.

Results

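Principal cells line the collecting duct of the kidney, and 10 genes that mark them or carry out their work were followed in kidney RNA from pristane-injected mice. The set held Elf5, Aqp2, Aqp3, Aqp4, Avpr2, Scnn1a, Scnn1b, Scnn1g, Fxyd4 and Hsd11b2, and all 10 were found among the 54532 genes counted in each library. The list was drawn up by function, with earlier results of these data known. Elf5 was chosen by its lower counts in the knockout libraries, so its values are given as a description with no test. There were 4 libraries, 2 from wild-type (WT) mice and 2 from mice lacking Zbp1 (Zbp1-/-, here Zbp1-KO), a gene for a sensor of Z-form nucleic acids that can trigger cell death. Zbp1 had been disrupted by CRISPR-Cas9 deletion of a span of its exons. Mice of both genotypes, female per the study's legend, were 8 weeks old when 500 μL pristane was injected into the peritoneum. Pristane is a hydrocarbon oil that induces a lupus-like disease, and kidneys were taken 8 months later. All 4 kidneys came from pristane-injected mice, and kidneys without pristane were not analysed here.

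Principal cells reabsorb water and sodium and secrete potassium. Vasopressin binds its V2 receptor, encoded by Avpr2, and raises cyclic AMP, which brings aquaporin-2 to the apical membrane. Water then leaves the cell through aquaporin-3 and aquaporin-4 on the basolateral side. Aldosterone, acting through the mineralocorticoid receptor, increases the epithelial sodium channel ENaC, which is built from the alpha, beta and gamma subunits encoded by Scnn1a, Scnn1b and Scnn1g. The enzyme encoded by Hsd11b2 inactivates cortisol and corticosterone and so keeps the receptor for aldosterone. Fxyd4 encodes a small regulator of the sodium pump, and Elf5 encodes a transcription factor of the ETS family that is found in principal cells.

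The libraries held 9878776 to 12921925 counts, of which 49.5% to 61.5% came from mitochondrially encoded genes, leaving 4003417 to 5782924 counts for all other genes. Zbp1 was counted 94 and 125 times in WT, and 18 times in Zbp1-KO 1 and 0 times in Zbp1-KO 2, so both Zbp1-KO libraries matched their label in direction, although one of them was not at 0. Counts per gene do not show which exons the 18 counts came from. Of all genes, 14908 passed the minimum count, and 2 of them, or 0.0134%, were called at an adjusted p under 0.05 by the quasi-likelihood test of edgeR. Those were Cfd and Lars2, both higher in Zbp1-KO. The deleted gene, Zbp1, was not called. It was fitted at -3.64 on the log2 scale, yet the same test left it at 0.999 after adjustment (unadjusted p = 0.00153). A count of 0 calls in this fit therefore does not show that genes were unchanged. Over the genes tested, the median log2 fold change was -0.0061. The labels number the kidneys without stating that each came from a separate mouse, so a p-value measures only the spread between these libraries. In whole kidney RNA, fewer cells of a type and less RNA per cell cannot be told apart.

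The members spanned a wide range of abundance. Expressed per length, as CPM, the count scaled to library size, per kilobase of exon (CPM per kb), Aqp2 led the WT libraries with a mean of 692. Fxyd4 followed with 86.0 CPM per kb, Hsd11b2 with 65.9, Aqp3 with 39.9, Aqp4 with 18.9, Scnn1a with 16.4 and Scnn1b with 16.2. Scnn1g had 4.45 CPM per kb, Elf5 3.18 and Avpr2 0.173. By the spread between the WT libraries, 4 neighbouring pairs in this order did not differ, namely Fxyd4 and Hsd11b2, Aqp4 and Scnn1a, Scnn1a and Scnn1b, and Scnn1g and Elf5. In whole kidney 9 of the 10 genes passed the minimum count, while the vasopressin receptor stayed near the floor. Since 14908 genes passed it, this does not test whether the members mark principal cells here. Other levels are in CPM, scaled between libraries by the trimmed mean of M-values (TMM), and compare libraries, not genes.

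**Figure D1:**
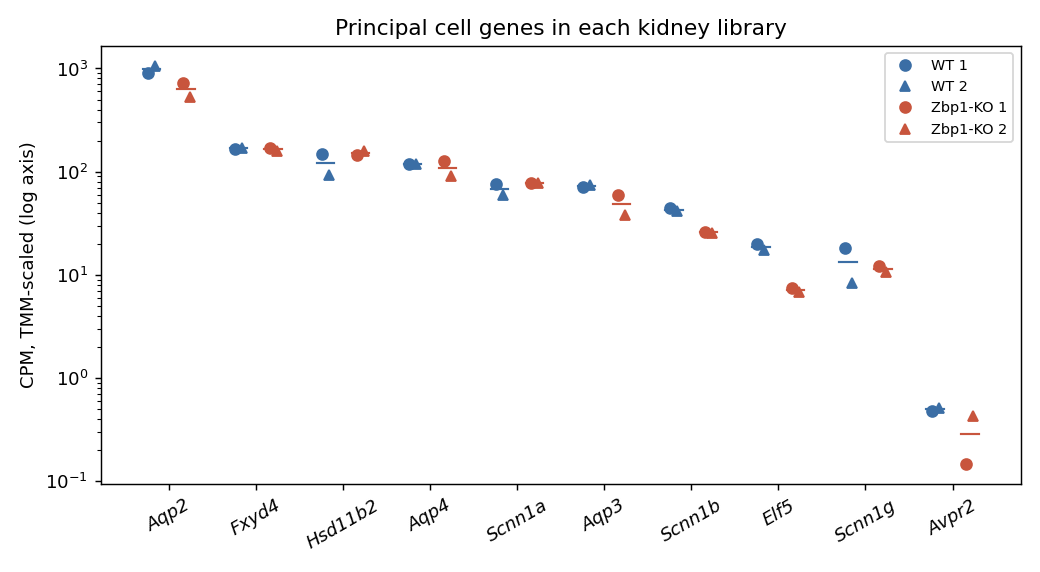
Level of each of the 10 genes in each library in CPM on a log axis, with circles for the library numbered 1 and triangles for that numbered 2 in each genotype, and short lines for the group means. Elf5, Aqp2, Aqp3 and Scnn1b lay lower in both Zbp1-KO libraries than in both WT libraries, Scnn1a lay slightly higher, and Avpr2 had at most 6 counts in any library.

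Elf5 lies on chromosome 2 at chr2:103411688-103450989 on the plus strand (GRCm38). It stood at 20.1 and 17.3 CPM for WT and at 7.52 and 6.79 CPM for Zbp1-KO, from 250, 202, 102 and 63 counts. The mean of the WT libraries was 18.7 ± 2.00 CPM, and that of the Zbp1-KO libraries 7.15 ± 0.519 CPM (SD, n = 2 for both). The Zbp1-KO mean was thus 38.3% of the WT mean, and the fitted log2 fold change was -1.38. This contrast chose the gene, so no test is attached. With each library left out in turn it stayed between -1.49 and -1.28.

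Promoter sequences are shown for Elf5 and for Aqp2, Aqp3 and Scnn1b, the other members with lower levels in both Zbp1-KO libraries and enough counts to test, a choice made after their values were seen. They come from RefSeq on GRCm38.p6, cover the 250 bases before each annotated start, and run 5′ to 3′ on the strand of the gene. Capitals mark GGAA, the core of the site bound by ETS factors such as ELF5, on either strand, so that TTCC is the same core on the other strand. Elf5 has 2 annotated starts, whose windows are chr2:103411848-103412097 and chr2:103423818-103424067, both on the plus strand. The first lies within the GENCODE span of the gene, which opens farther upstream. The others are Aqp2 at chr15:99578806-99579055 on the plus strand, Aqp3 at chr4:41098184-41098433 on the minus strand and Scnn1b at chr7:121864788-121865037 on the plus strand.
Elf5, upstream start: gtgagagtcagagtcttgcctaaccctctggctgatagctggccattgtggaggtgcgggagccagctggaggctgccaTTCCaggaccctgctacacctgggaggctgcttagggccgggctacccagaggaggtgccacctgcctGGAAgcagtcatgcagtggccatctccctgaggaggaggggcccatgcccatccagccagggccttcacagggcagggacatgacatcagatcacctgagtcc
Elf5, downstream start: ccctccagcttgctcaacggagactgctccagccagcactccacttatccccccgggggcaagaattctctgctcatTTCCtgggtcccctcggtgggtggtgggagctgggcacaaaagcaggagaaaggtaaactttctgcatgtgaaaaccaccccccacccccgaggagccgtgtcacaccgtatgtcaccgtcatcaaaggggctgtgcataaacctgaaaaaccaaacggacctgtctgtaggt
Aqp2: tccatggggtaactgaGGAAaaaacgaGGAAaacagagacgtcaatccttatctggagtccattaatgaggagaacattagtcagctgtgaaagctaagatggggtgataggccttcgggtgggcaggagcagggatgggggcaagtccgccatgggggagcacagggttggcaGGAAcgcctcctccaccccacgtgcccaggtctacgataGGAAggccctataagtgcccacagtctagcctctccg
Aqp3: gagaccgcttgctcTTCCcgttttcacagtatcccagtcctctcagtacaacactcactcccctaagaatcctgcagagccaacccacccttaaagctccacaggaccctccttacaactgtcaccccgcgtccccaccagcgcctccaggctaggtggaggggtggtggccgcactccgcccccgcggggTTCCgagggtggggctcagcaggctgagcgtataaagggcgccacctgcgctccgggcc
Scnn1b: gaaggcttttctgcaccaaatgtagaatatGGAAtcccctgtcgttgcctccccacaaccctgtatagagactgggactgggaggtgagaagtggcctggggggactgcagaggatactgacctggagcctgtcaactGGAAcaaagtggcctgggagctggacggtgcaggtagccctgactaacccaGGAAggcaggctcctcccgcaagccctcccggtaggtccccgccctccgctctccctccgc

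The 2 Elf5 windows held 2 and 1 matches to GGAA, Aqp2 held 4, Aqp3 held 2 and Scnn1b held 3. Such a match is common, since 93.4% of 32851 promoter windows of the same length held at least 1, with a median of 3 matches. Across the members, 7 of 10 had a window, and all 8 windows held the core. GATAA, a site of GATA factors, was found in 3 of the 8 windows against 22.6% of all windows. TGACG, part of the site of the cyclic AMP-responsive factor CREB, was found in 2 of 8, the Aqp2 and downstream Elf5 windows, against 17.8%. AGAACA, part of the steroid receptor site, was found in 2 of 8, those of Aqp2 and Avpr2, against 16.1%. All were searched on both strands, and a match is a description of letters, not of binding.

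The aquaporins did not share one pattern. Aqp2, the vasopressin-regulated apical water channel, lies at chr15:99579055-99584547. Its level was 903 and 1061 CPM in WT kidneys versus 730 and 530 CPM without Zbp1, with means of 982 ± 112 and 630 ± 141 CPM (± SD, n = 2 per genotype). The groups did not overlap, and the mean in Zbp1-KO was 64.2% of that in WT. The log2 fold change was -0.64 ± 0.20 (SE), with an unadjusted p of 0.00866 and an adjusted p of 0.999 in the edgeR fit, so Aqp2 was not called. Without Zbp1-KO 2 the log2 fold change was -0.44.

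Aqp3, a basolateral channel for water and glycerol at chr4:41092722-41098183, had WT levels of 71.4 and 74.4 CPM and Zbp1-KO levels of 59.1 and 37.9 CPM. The means were 72.9 ± 2.12 and 48.5 ± 15.0 CPM (± SD, n = 2 per genotype), and the groups did not overlap. The log2 fold change of Aqp3 was -0.58 ± 0.23 (SE), with an unadjusted p of 0.0247 and an adjusted p of 0.999 by edgeR. This value leaned on one library: it was -0.31 without Zbp1-KO 2 and -0.95 without Zbp1-KO 1. Aqp4, the other basolateral water channel, had 117 and 118 CPM in the WT kidneys, against 128 and 90.8 CPM in those of Zbp1-KO mice. Its WT libraries lay between the Zbp1-KO libraries, and the log2 fold change was -0.10 ± 0.20 (SE), turning to 0.11 without Zbp1-KO 2.

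Avpr2, the vasopressin V2 receptor on chromosome X at chrX:73892102-73895502, gave 6 counts from each WT library, and 2 and 4 from the Zbp1-KO libraries. These are 0.483, 0.513, 0.147 and 0.431 CPM, where 3 counts correspond to 0.221 to 0.323 CPM, so the gene was under the minimum count and was not tested. Of its 2886 exonic bases, 2347 overlap Arhgap4 on the opposite strand, and the strand setting of the counting is not given in the sources used here. Arhgap4 had 8.69 and 6.41 CPM in WT kidneys versus 8.85 and 14.1 CPM without Zbp1. The part of this overlap in the low count of Avpr2 was not tested.

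The ENaC subunits also differed from one another. Scnn1b, the beta subunit at chr7:121865038-121918514, had WT levels of 44.2 and 41.3 CPM and Zbp1-KO levels of 26.1 and 25.5 CPM. The means were 42.7 ± 2.01 and 25.8 ± 0.405 CPM (± SD, n = 2 per genotype), the libraries of a genotype lay close together and the groups did not overlap. The Zbp1-KO mean of Scnn1b was 60.4% of the WT mean. The log2 fold change was -0.73 ± 0.21 (SE), with an unadjusted p of 0.00459 and an adjusted p of 0.999 by edgeR, and it stayed between -0.78 and -0.69 with any library left out.

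Scnn1a, the alpha subunit at chr6:125320659-125344943, had 75.7 and 59.7 CPM in the WT kidneys, against 78.4 and 77.3 CPM in those of Zbp1-KO mice. Both Zbp1-KO libraries were above both WT libraries, by less than the gap between the WT libraries themselves, and the log2 fold change was 0.20 ± 0.19 (SE). Without WT 2 it was 0.03. Scnn1g, the gamma subunit, lies on the same chromosome as Scnn1b at chr7:121734479-121768475. It had 18.3 and 8.30 CPM in WT kidneys versus 12.1 and 10.6 CPM without Zbp1, so the WT libraries enclosed the Zbp1-KO libraries. Its log2 fold change was -0.23 ± 0.38 (SE) and turned to 0.44 without WT 1.

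Fxyd4, the sodium pump regulator at chr6:117933559-117937692, had the smallest fold change of the tested members, with WT levels of 167 and 170 CPM and Zbp1-KO levels of 171 and 158 CPM. Its log2 fold change was -0.03 ± 0.17 (SE). Hsd11b2, the enzyme that shields the mineralocorticoid receptor, lies at chr8:105518755-105523988 and had 149 and 93.1 CPM in the WT kidneys, against 145 and 158 CPM in those of Zbp1-KO mice. The groups overlapped, the means were 121 ± 39.9 and 151 ± 9.24 CPM (± SD, n = 2 per genotype), and the log2 fold change was 0.32 ± 0.23 (SE). It was 0.01 without WT 2.

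Leaving Elf5 aside, 0 of the 8 members tested were called by edgeR against 0.0134% of all genes tested. At an unadjusted p under 0.05, 3 of the 8 were lower in Zbp1-KO (Aqp2, Aqp3 and Scnn1b), where 1.97% of all genes were. Of the 9 members tested, Elf5 included, 4 had both Zbp1-KO libraries below both WT libraries, where 16.3% of all genes did, and 1 had both above, where 16.0% did. Since Elf5 was picked on this contrast and the list was drawn up with results of these data known, nothing is read from those shares. The median log2 fold change of the 8 members tested besides Elf5 was -0.17. It was -0.086 without WT 1, -0.32 without WT 2, -0.36 without Zbp1-KO 1 and -0.069 without Zbp1-KO 2. The library Zbp1-KO 2 gave the lowest level for 6 of the 10 members, WT 2 for 3 and Zbp1-KO 1 for 1.

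**Figure D2:**
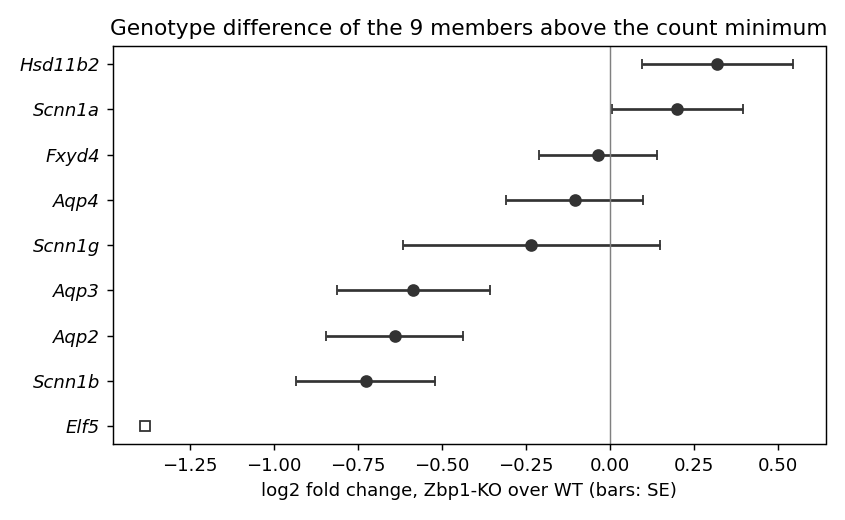
Log2 fold change of Zbp1-KO over WT for the 9 members that passed the minimum count, with bars for the SE, and an open square without a bar for Elf5, which was chosen on this contrast. Values ran from -1.38 for Elf5 to 0.32 for Hsd11b2, and the bars of Scnn1b, Aqp2 and Aqp3 lay wholly below 0.

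Ratios within a library do not depend on how libraries were scaled to each other. The per-length ratio of Scnn1b to Scnn1a was 0.916 and 1.09 in WT kidneys versus 0.523 and 0.518 without Zbp1. The beta subunit was thus about level with the alpha subunit in WT and lower in both Zbp1-KO libraries, a difference of -0.94 on the log2 scale. Its exact two-sided permutation p was 0.333, the smallest that these 4 libraries allow. The ratio of Scnn1g to Scnn1a was 0.335 and 0.192 for WT, against 0.213 and 0.189 for Zbp1-KO, a log2 difference of -0.34 with overlap in level between the groups (exact permutation p = 0.667).

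Aqp3 and Aqp2 kept nearly the same per-length ratio, at 0.0614 and 0.0544 in WT kidneys versus 0.0628 and 0.0555 without Zbp1. The log2 difference was 0.03 (exact permutation p = 0.667). The ratio of Aqp4 to Aqp2 was 0.0296 and 0.0253 for WT, against 0.0400 and 0.0390 for Zbp1-KO, a log2 difference of 0.53 without overlap (exact permutation p = 0.333, the smallest possible). For Elf5 over Aqp2 the ratio was 0.00538 and 0.00393 in WT kidneys versus 0.00249 and 0.00309 without Zbp1, a log2 difference of -0.73, given with no test.

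**Figure D3:**
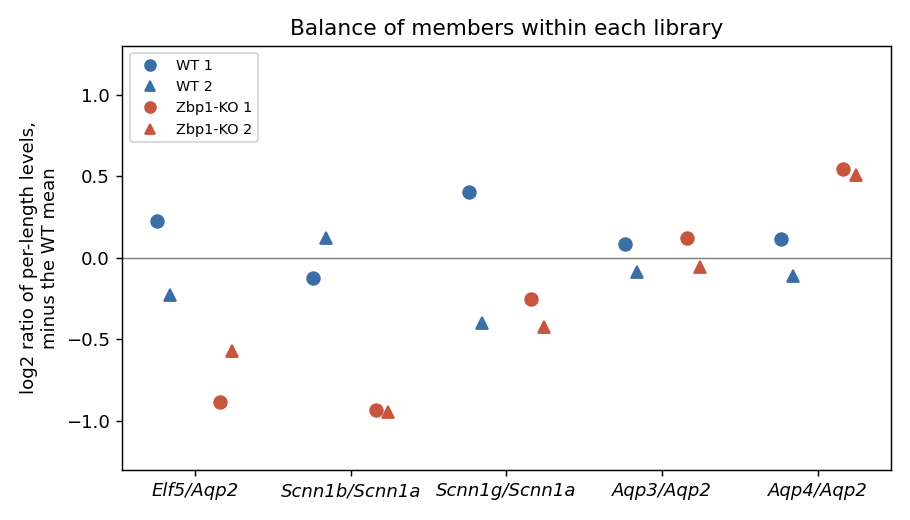
Log2 ratio of the per-length levels of 5 pairs of members in each library, minus the WT mean of that ratio. The Zbp1-KO libraries lay together at -0.94 on average for Scnn1b over Scnn1a and at 0.53 for Aqp4 over Aqp2, and close to the WT libraries for Aqp3 over Aqp2.

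Genes with profiles most like a member were found by the Euclidean distance of centred log2 CPM over the 4 libraries, among 14209 genes with a mean of at least 1 CPM. Nearest to Elf5 were Cyp7b1, an oxysterol hydroxylase (distance 0.131), Usp11, a deubiquitinase (0.177), and Zfp280b, a zinc finger gene (0.196). Usp11, for example, had 7.56 and 6.33 CPM in WT kidneys versus 3.17 and 2.69 CPM without Zbp1. Nearest to Aqp2 were Shf (distance 0.0398), Ado, a cysteamine dioxygenase (0.0684), and Pcdhga12, a protocadherin (0.0924). Shf had WT levels of 6.68 and 7.95 CPM and Zbp1-KO levels of 5.53 and 3.99 CPM. With 4 libraries many genes can share such a profile, and no member was among these neighbours.

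The other genes of the pathways were taken from 7 lists. They held 79 genes in all, of which 78 were tested, and 0 were called by edgeR, beside 0.0134% of all genes tested. That share also stands beside the 0 calls of each list below. At an unadjusted p under 0.05, 3 were lower, beside 1.97% of all genes, and 0 were higher, for which the share is not given here. The lists were chosen with earlier results of these data known, so nothing is read from these shares. The median log2 fold change of the 78 genes was -0.01. All 3 lower genes belonged to the aldosterone and glucocorticoid list of 12 genes, whose median was -0.03. Sgk1, the kinase that protects ENaC from removal, had 121 and 94.9 CPM in the WT kidneys, against 80.0 and 78.1 CPM in those of Zbp1-KO mice, with a log2 fold change of -0.45 ± 0.19 (SE; unadjusted p = 0.0381). Per1, a clock gene that aldosterone induces, had 57.8 and 64.7 CPM in WT kidneys versus 38.2 and 46.8 CPM without Zbp1 (unadjusted p = 0.0225). Klf9, a glucocorticoid-induced factor, had WT levels of 21.2 and 20.4 CPM and Zbp1-KO levels of 7.96 and 13.9 CPM (unadjusted p = 0.0122). Each of these had an adjusted p of 0.999 by edgeR. Per1 and Klf9 are outside the fixed list of genes to name and were singled out after their values were seen.

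No other gene of that list had an unadjusted p under 0.05 by edgeR. With Usp2, 4 of its 12 genes had both Zbp1-KO libraries below both WT libraries, where 16.3% of all genes did. For 0 of them both lay above, where 16% of all genes did. Nr3c2, the mineralocorticoid receptor itself, had 9.33 and 11.5 CPM in the WT kidneys, against 12.0 and 8.29 CPM in those of Zbp1-KO mice. Nedd4l, the ubiquitin ligase that removes ENaC from the membrane, had 111 and 110 CPM in WT kidneys versus 101 and 116 CPM without Zbp1. Wnk1, a kinase of salt transport, and Nedd4, a related ligase, had log2 fold changes of 0.00 ± 0.19 and -0.23 ± 0.20 (SE).

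In the vasopressin list all 14 genes were tested, 0 were called and the median log2 fold change was -0.08. Its most abundant genes were Prkar1a and Prkaca, subunits of protein kinase A, and Adcy6, an adenylyl cyclase, with log2 fold changes of -0.07, 0.34 and 0.03. Slc14a2, the vasopressin-regulated urea transporter, had WT levels of 17.5 and 30.1 CPM and Zbp1-KO levels of 18.6 and 11.5 CPM, a log2 fold change of -0.65 ± 0.33 (SE) with overlapping groups. In the list for the movement of aquaporin-2 vesicles 0 of 13 genes were called and the median was 0.05. There Hspa8, a chaperone, Ezr, which links membranes to actin, and Vamp8, a vesicle fusion protein, had 0.28, 0.00 and 0.05.

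Among 10 proteases and inhibitors that act on ENaC, 0 were called and the median log2 fold change was -0.04. Prss8, the channel-activating protease prostasin, had 97.6 and 82.0 CPM in the WT kidneys, against 78.9 and 78.2 CPM in those of Zbp1-KO mice, a log2 fold change of -0.19 ± 0.19 (SE). Spint2, a protease inhibitor, had -0.05, Ctsb, a lysosomal protease, 0.00, and Plau, urokinase, 0.06 on the same scale. Of 9 potassium channel and sodium pump genes, 8 were tested, 0 were called and the median was -0.02. Kcnj1, the potassium secretory channel ROMK, had 103 and 86.4 CPM in WT kidneys versus 106 and 100.5 CPM without Zbp1. Fxyd2 and Atp1b1, which encode parts of the sodium pump, had log2 fold changes of -0.11 and -0.09. Kcnj1 is also abundant in the thick ascending limb, and these pump genes in the whole nephron.

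Among 11 transcription factors of the collecting duct, 0 were called and the median log2 fold change was -0.10. Ehf and Elf3, ETS factors related to Elf5, had 87.1 and 67.1 against 75.6 and 59.6 CPM, and 25.7 and 27.0 against 25.0 and 17.5 CPM, in WT and Zbp1-KO respectively. Their log2 fold changes were -0.19 ± 0.21 and -0.31 ± 0.25 (SE). The -1.38 of Elf5 is not set against them, since Elf5 was chosen on this contrast. Gata3, which takes part in the expression of Aqp2, had WT levels of 39.6 and 56.3 CPM and Zbp1-KO levels of 58.6 and 32.5 CPM. Tfcp2l1, a factor of both collecting duct cell types, had a log2 fold change of 0.11 ± 0.19 and Pax8 one of 0.08 ± 0.18 (SE). In the list of prostaglandin, endothelin and purine signals 0 of 10 were called and the median was 0.14. The prostaglandin receptor Ptger3 had 0.16, and the synthesis enzymes Ptgs1 and Ptges 0.01 and 0.13.

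The other cells around the principal cells were followed by 12 marker lists, 111 genes in all, of which 106 were tested. By edgeR 1 was called, the fat gene Cfd, beside 0.0134% of all genes. At an unadjusted p under 0.05, 10 were higher, 7 of them fat genes, and 3 were lower. Of all genes, 1.97% were lower at that level, and the share that were higher is not given here. Both Zbp1-KO libraries lay above both WT libraries for 26 of the 106, where 16% of all genes did, and below for 7, where 16.3% did. These lists were chosen with earlier results of these data known, so nothing is read from these shares. For the intercalated cells, the acid-base cells of the same duct, 0 of 14 genes were called and the median log2 fold change was -0.01, with summed levels of 639 to 727 CPM for WT versus 613 to 665 CPM for Zbp1-KO. For 12 genes of collecting duct epithelium the median was -0.07, with sums of 838 to 954 CPM across the WT kidneys versus 774 to 999 CPM across those without Zbp1. For 8 genes of the thick ascending limb it was 0.12, with sums of 1330 to 1573 and 1265 to 1838 CPM. The summed level of the 10 principal cell genes, most of it from Aqp2, was 1567 to 1644 CPM for WT versus 1096 to 1357 CPM for Zbp1-KO.

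Some lists separated single libraries. The score of a list is the mean of its centred log2 CPM over the genes tested. For the principal cell genes the score includes Elf5, which was chosen for its lower counts in Zbp1-KO. For the inner medulla and thin limb the score was 0.18 and 0.14 in WT, 0.19 in Zbp1-KO 1 and -0.51 in Zbp1-KO 2, the library in which most members were lowest. Their summed level was 516 to 654 CPM for WT versus 435 to 667 CPM for Zbp1-KO, and none of the genes was at 0 throughout a group. Its part in the levels of the principal cell genes in that library was not tested. For the urothelium the scores were 0.03 and 0.03 in WT and 0.24 and -0.30 in Zbp1-KO, with a median log2 fold change of -0.14. For the distal convoluted tubule, proximal tubule and endothelium the medians were 0.09, -0.22 and -0.06. The sign of the median turned with some library left out for these lists (-0.10 to 0.23, -0.43 to 0.08 and -0.17 to 0.11). It also turned for the urothelium (-0.38 to 0.16), thick ascending limb (-0.17 to 0.33), collecting duct epithelium (-0.31 to 0.06) and intercalated cells (-0.14 to 0.03). The same held for the inner medulla and thin limb (-0.59 to 0.20). Among the pathway lists it turned for vasopressin (-0.28 to 0.12), aquaporin-2 vesicles (-0.096 to 0.052) and ENaC proteases (-0.12 to 0.009). Potassium channel and pump genes (-0.12 to 0.23) and transcription factors (-0.11 to 0.005) also turned.

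Of 12 immediate-early genes tested, which respond quickly to handling and stress, 0 were called by edgeR, beside 0.0134% of all genes tested. At an unadjusted p under 0.05, 10 were lower in Zbp1-KO, beside 1.97% of all genes. The list was chosen with earlier results of these data known, so nothing is read from these shares. Other tests called some of these genes, namely 1 in DESeq2 and in limma-voom, 3 in the exact test of edgeR and 4 in its likelihood ratio test. Their median log2 fold change was -1.25, and it was -0.57 without WT 1. Summed, they gave 620 and 233 CPM in the WT kidneys, against 135 and 142 CPM in those of Zbp1-KO mice. The 9 fat genes tested had a median of 2.13, with sums of 835 to 853 CPM across the WT kidneys versus 1003 to 1275 CPM across those without Zbp1. For podocytes, T cells and macrophages the medians were 0.45, 0.87 and 0.29. The T cell genes were low, with sums of 12.6 to 16.2 CPM for WT versus 23.7 to 28.2 CPM for Zbp1-KO. Of the 8 T cell genes tested, 0 had an unadjusted p under 0.05 by edgeR. The macrophage median was 0.08 without WT 2 and 0.53 without WT 1. That of T cells was 1.35 with the replicate number as a block and 1.36 in limma-voom. For the mitochondrially encoded genes the median was -0.32, with overlapping sums, and it was -0.05 without Zbp1-KO 1 and -0.88 without Zbp1-KO 2. Whether any of these had a part in the levels of the principal cell genes was not tested.

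**Figure D4:**
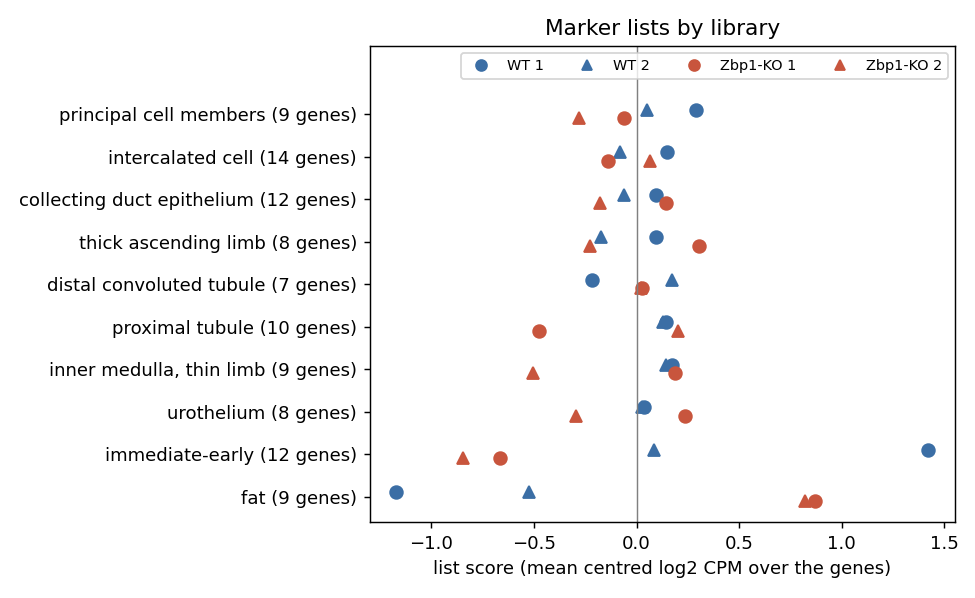
Score of the principal cell genes and 9 other gene lists in each library, the mean over the genes tested of log2 CPM after centring each gene on its 4 libraries. The principal cell score ran from 0.29 in WT 1 to -0.28 in Zbp1-KO 2. It includes Elf5, which was chosen on this contrast, so part of its difference was set by that choice. The inner medulla list was low at -0.51 in Zbp1-KO 2, and the immediate-early and fat lists separated the genotypes.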

How the data were processed

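Poly(A) RNA was sequenced in 2 WT and 2 Zbp1-KO kidney libraries from mice injected with pristane. The deposited values are whole-number read counts per gene, which the authors obtained, per the labels and methods, by trimming with Trimmomatic, alignment with HISAT2 to mm10 and counting with featureCounts (versions and strand setting not given in the sources used here). Gene IDs were matched to GENCODE M21 (54495 of 54532). Counts were fitted in edgeR 4.0.16 (R 4.3.3) on all 4 libraries with genotype as the only term, after filterByExpr (minimum count 10, total 15) and TMM scaling. P-values were adjusted by Benjamini-Hochberg over 14908 genes, and genes were called at 0.05. A prior count of 0.125 entered fold changes and of 2 entered log2 CPM. The fit was tested on simulated data. Alternatives covered scaling, filters, the replicate number as a block, DESeq2 1.42.0, limma 3.58.1 and leaving out each library. DESeq2 took its size factors from the TMM-scaled library sizes, and limma-voom was run with library quality weights.

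The members and gene lists were chosen with earlier results of these data known. Genes named were the members, 10 regulators, the 3 most abundant genes of each pathway list, called list genes and the 3 nearest profiles of Elf5 and of Aqp2; a few genes that this rule names are not reported here. Exon lengths and overlaps came from GENCODE M21, and promoters from RefSeq (GRCm38.p6). Intervals of counting error are not given, and PCR copies were not resolved by molecular identifiers.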

Additional observations from a re-analysis of the deposited data

How the results depend on the processing

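The 8 members tested besides Elf5 gave 0 calls under each of the 15 alternatives. The lowest adjusted p over these alternatives was 0.209 for Aqp2, 0.297 for Aqp3 and 0.385 for Scnn1b. With a library left out, log2 fold changes ran from -0.90 to -0.44 for Aqp2, -0.95 to -0.31 for Aqp3, -0.78 to -0.69 for Scnn1b, 0.03 to 0.38 for Scnn1a and 0.01 to 0.69 for Hsd11b2. The sign turned for Aqp4 (-0.38 to 0.11) and Fxyd4 (-0.098 to 0.011), positive without Zbp1-KO 2, and for Scnn1g (-0.70 to 0.44), positive without WT 1. The median of the members tested besides Elf5 ran from -0.36 to -0.069 with a library left out and from -0.18 to -0.12 otherwise. Log2 ratio differences kept their sign except Scnn1g over Scnn1a (-0.74 to 0.06) and Aqp3 over Aqp2 (-0.06 to 0.12).

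Calls among the pathway and cell type lists, 1 in the reported fit, came to 3 with a minimum of 1 count in any library, 2 in the exact test of edgeR, in its likelihood ratio test, in DESeq2 and in limma-voom, and 0 to 3 with a library left out. Immediate-early genes, with 0 calls in the reported fit, gave 7, 3, 4, 1, 1 and 0 to 7 calls in the same order, and mitochondrially encoded genes 2, 0, 0, 0, 1 and 0 to 7. Over all genes, where the reported fit called 2, these settings called 41, 14, 26, 9, 8 and 0 to 37. The cause was not tested. With the replicate number as a block, the pathway and cell type lists gave 2 calls, immediate-early genes 3, mitochondrially encoded genes 1 and all genes 11. Deviations of the libraries numbered 1 correlated at 0.004 across genes. With 2 libraries a group, this value cannot show whether libraries of the same number shared more than the number. The block gave no call among the members. With 2 libraries a group, the spread rests on few values, and Avpr2 was under the minimum count.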
